A study of Rattus norvegicus with 9 samples.

Results

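Lysosomal genes were followed in hepatic macrophages after PPVL, the partial ligation of the portal vein, in male rats of the Sprague-Dawley stock. The operation narrows the vein and raises the pressure in it. The set was defined by gene name, with earlier results of these data known, as 33 listed lysosomal hydrolases, membrane proteins and cofactors together with every gene whose symbol begins with Atp6v, the subunits of the lysosomal proton pump. It had 50 members among the 18166 genes that carry a single symbol on the array, 30 of them from the list and 20 with Atp6v symbols. Gaa, Naglu and Sgsh were matched to no probeset with a single symbol and were skipped. Of the 50 members, 48 passed the filter on dim genes (a mean log2 signal of at least 4.16), and Atp6v0d2 and Atp6v1e2, with mean signals of 3.82 and 3.89, did not. Each of 9 arrays measured total RNA from the hepatic macrophages of 1 rat. There were 3 groups of 3 rats: sham rats, which had the same operation without a ligature, rats 3 days after PPVL and rats 10 days after PPVL. No genetic change is labelled in any group, and neither the age of the rats nor the day on which sham macrophages were taken is given in the sources used here, so time since surgery and ligation cannot be told apart.

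Lysosomes are acidic compartments in which macrophages digest what they have engulfed. The proton pump, or V-ATPase, acidifies them: its peripheral V1 sector splits ATP and its membrane V0 sector carries the protons. The hydrolases take apart glycans, sulfated glycans, lipids and proteins, membrane proteins such as Lamp1 and Lamp2 line the compartment, and the transcription factor TFEB and its relatives switch on many of these genes through a short DNA element built around an E-box. In the liver, Kupffer cells and recruited macrophages use this system to clear bacteria, dying cells and aged red blood cells.

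The E-box letters CACGTG, which read the same on both strands, were looked for in promoters of 300 bases (250 before and 50 after the transcription start) from RefSeq on the GRCr8 build. These sequences are shown because the element is the known route by which lysosomal genes are switched on together. Promoters were found for 39 of the 50 members, and 7 of them (17.9%) held CACGTG, compared with 9.21% of the 11302 tested genes with a promoter and 7.08% of all 27457 genes in the table. In all 7 the E-box also occurred as TCACGTG on either strand, a form that contains CACGTG and was found in 5.16% of the tested genes. Lamp1 held the letters 5 times, all before the start. Its stretch from position -190 to -31 relative to the start, on the minus strand of chr16:83075094-83075253, follows with each E-box in capitals.
Lamp1: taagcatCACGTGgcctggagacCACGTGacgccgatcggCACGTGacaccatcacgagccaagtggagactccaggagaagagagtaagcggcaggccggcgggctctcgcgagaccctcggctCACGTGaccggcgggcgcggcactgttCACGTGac

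The other 6 promoters with the letters are given as 26 bases around an E-box in capitals, so that the shared core and its flanks can be compared: those of the calcium channel gene Mcoln1 (plus strand, chr12:6358226-6358251, 1 of its 2 E-boxes), Glb1 (plus strand, chr8:122963608-122963633), Galc (minus strand, chr6:123245564-123245589), Idua (minus strand, chr14:1190916-1190941), Atp6v0d1 (minus strand, chr19:50357285-50357310) and Atp6v0e1 (minus strand, chr10:17007117-17007142).
Mcoln1: tcaagcttgtCACGTGttcgacccag
Glb1: gctccggagtCACGTGgcctgcagag
Galc: gtgccacagtCACGTGacccgcacaa
Idua: ggcgaatggtCACGTGgggcgttacc
Atp6v0d1: ccattgtggtCACGTGagatgcagtg
Atp6v0e1: gcgcgccggtCACGTGagcctctgtt

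In each of these 6 stretches the base before the core is a T. At 3 days the 7 members with the letters differed from sham by 0.12 (Lamp1), 0.05 (Mcoln1), 0.19 (Glb1), 0.34 (Galc), 0.19 (Idua), 0.06 (Atp6v0d1) and 0.06 (Atp6v0e1) on the log2 scale, and none passed the test described next. Of the 8 members that rose at 3 days, 6 had a promoter in the table and none of these held CACGTG, beside 9.21% of the tested genes. With so few promoters, none is near that share. Of all tested members 16.7% rose, so no rise among 7 is likewise a small count. A link between the letters and the rises was not tested. The 100 bases before the start are shown for the 2 largest rises among those 6, Atp6v0a1 (plus strand, chr10:86436041-86436140) and Npc2 (minus strand, chr6:110149246-110149345). A promoter without the letters says only that they are not in this window.
Atp6v0a1: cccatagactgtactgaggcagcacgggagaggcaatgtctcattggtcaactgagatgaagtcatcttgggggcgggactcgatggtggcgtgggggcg
Npc2: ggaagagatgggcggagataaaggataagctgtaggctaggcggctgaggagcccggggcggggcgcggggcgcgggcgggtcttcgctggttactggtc

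At 3 days after PPVL, 8 of the 48 tested members were higher than in sham and 1 was lower. The rises were those of Atp6v0a1, Asah1, Npc2, Fuca1, Atp6v1b2, Neu1, Galns and Atp6v1d, by 1.26-fold to 1.72-fold, and Arsb fell. The members that rose were 16.7% of those tested, and 2.15% of all 14014 genes tested rose by the same rule; 1 member fell, as did 0.714% of all genes. In either direction 2.86% of all genes passed. The 8 rises became 5 without sham rat 2, 5 without 3-day rat 2 and 4 when the 10-day rats were left out of the fit. Over all genes the 301 rises became 167, 161 and 99 in the same fits. The test was the moderated test of limma over all 9 arrays, 2-sided, with Benjamini-Hochberg adjustment over the 14014 genes and a threshold of 0.05. Differences below are log2 differences ± their standard error (SE) with n = 3 rats per group, and signals are log2 signals.

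The shift was broader than the single calls. Of the 48 members, 41 (85.4%) lay above sham at 3 days, where 45% of all genes did, and their median difference was 0.19 against -0.01 for all genes. The members were brighter than the genes set beside them here and below, with a median signal of 8.79 against 6.57 for all genes tested. With a filter at the 50th percentile, 8 of 44 members and 3.55% of 10269 genes were called higher at 3 days. Shares among genes as bright as the members were not computed. In 27 members (56.2%) every 3-day rat was above every sham rat, and 10.1% of all genes had that arrangement. In 2 members, Arsb and Atp6v0e2, every 3-day rat was below every sham rat, as in 8.66% of all genes. The median over the 48 members of the signal minus its sham mean was -0.08, 0.02 and 0.06 in sham rats 1 to 3, 0.15, 0.17 and 0.20 in the 3-day rats and 0.16, 0.09 and 0.16 in the 10-day rats. All 6 PPVL rats therefore lay above all 3 sham rats, by a small amount.

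Sham rat 1 stood apart for these genes. It had the lowest signal of the 9 rats for 29 of the 48 members (60.4%), where this held for 16.2% of all genes tested. Its mean level of 11 neutrophil marker genes was 6.81, against 7.89 and 7.96 in the other sham rats. That of 9 recruited monocyte genes was 9.35, against 9.59 and 9.67. Other lists were highest in sham rat 1 among the sham rats, such as T cell genes (9.66, against 9.47 and 9.61) and platelet genes (6.69, against 6.32 and 6.55). A link between these levels and its member signals was not tested. Without sham rat 1 the median difference of the members was 0.14 at 3 days and 0.09 at 10 days, and 6 members were called higher at 3 days and 0 at 10 days. Of all genes, 163 (1.16%) were called higher at 3 days in that fit and 3 (0.0214%) at 10 days. The member calls do not set sham rat 1 apart. The count of members at 3 days was 5 without sham rat 2 and 7 without sham rat 3, beside 167 and 203 of all genes. At 10 days it was also 0 without either of them or without any 10-day rat. Of all genes, 0 were called higher at 10 days in those fits, or 1 without 10-day rat 2.

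**Figure D1:**
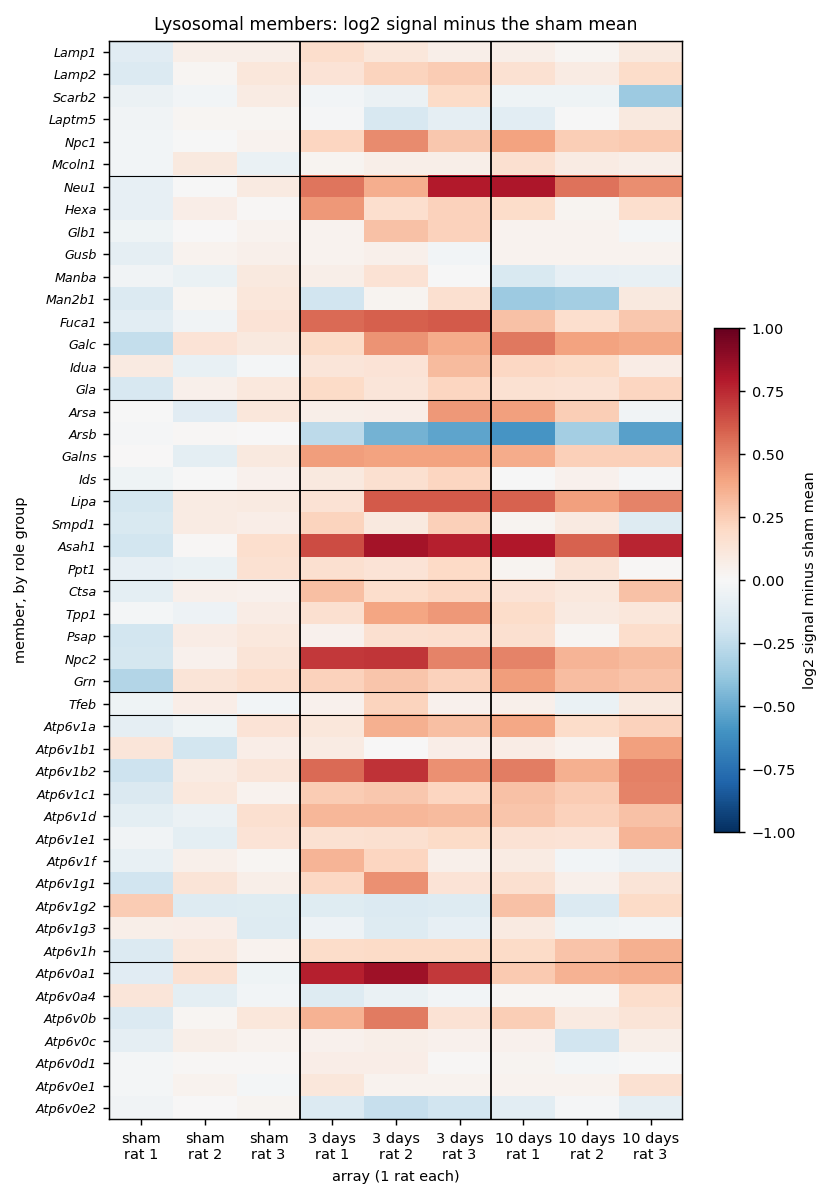
Log2 signal minus the sham mean for the 48 tested members (rows, by role group, separated by lines) in each of the 9 rats (columns); red is above and blue below the sham mean. The PPVL columns are mostly red, Arsb is blue in all 6 of them, and sham rat 1 is mostly pale blue.

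Among the glycosidases, which remove sugars, 2 of 10 tested members rose at 3 days, beside 2.15% of all genes. Fuca1, which removes fucose from glycoproteins, had signals of 7.59, 7.66 and 7.83 in the sham rats, 8.26, 8.29 and 8.31 in the 3-day rats and 7.99, 7.86 and 7.96 in the 10-day rats. The 3 groups did not overlap, with the 3-day rats highest and the 10-day rats between. Fuca1 rose by 0.59 ± 0.0744 at 3 days (adjusted p = 0.00411). Its difference of 0.24 at 10 days did not pass (adjusted p = 0.152). Neu1, the lysosomal sialidase, had signals of 6.51, 6.59 and 6.68 in sham, 7.13, 6.96 and 7.39 at 3 days and 7.4, 7.14 and 7.06 at 10 days. Every PPVL rat was above every sham rat, and the days overlapped. Neu1 rose by 0.56 ± 0.12 at 3 days (adjusted p = 0.041), and its difference of 0.61 at 10 days did not pass (adjusted p = 0.0566). The call at 3 days was kept in 2 of 9 fits that left out 1 array, those without 3-day rat 2 or 10-day rat 1, and adjusted p reached 0.13 without sham rat 1. At 10 days Neu1 passed when 3-day rat 3 was left out (adjusted p = 0.0458), and also with a filter at the 50th percentile (0.0421), quantile normalization (0.0409), an intensity trend (0.0462) and array weights (0.0392).

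The other 8 glycosidases did not pass at 3 days, and 7 of the 10 had an unadjusted p under 0.05, all of them above sham, beside 15.5% of all genes in either direction. Galc, which splits galactosylceramide, differed by 0.34 at 3 days and 0.44 at 10 days. Hexa, the alpha subunit of hexosaminidase, differed by 0.28 and 0.12, and the beta-galactosidase gene Glb1 by 0.19 and 0.02. Idua, which acts on dermatan and heparan sulfate, differed by 0.19 and 0.16, and the alpha-galactosidase gene Gla by 0.18 and 0.17. The beta-glucuronidase gene Gusb (0.02 and 0.04) and the mannosidase genes Manba (0.07 and -0.10) and Man2b1 (0.00 and -0.20) lay nearer to sham.

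The sulfatases moved in both directions. Galns, which removes sulfate from keratan and chondroitin sulfate, had signals of 6.82, 6.72 and 6.92 in sham, 7.24, 7.22 and 7.22 at 3 days and 7.19, 7.06 and 7.06 at 10 days. All PPVL rats were above all sham rats. Galns rose by 0.41 ± 0.0681 at 3 days (adjusted p = 0.0144). Leaving out sham rat 2 or 3-day rat 2 ended this call (adjusted p = 0.0555 and 0.0514). Its difference of 0.29 at 10 days did not pass (adjusted p = 0.0833). Arsb, arylsulfatase B, which removes sulfate from dermatan sulfate, had signals of 8.81, 8.83 and 8.82 in sham, 8.56, 8.35 and 8.29 at 3 days and 8.23, 8.48 and 8.28 at 10 days. All PPVL rats were below all sham rats, whose values were almost equal to one another.

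Arsb fell by 0.42 on the log2 scale at 3 days (SE 0.0892, adjusted p = 0.0409) and fell by 0.49 at 10 days (SE 0.0892, adjusted p = 0.0485). It was the single member called lower on either day. The call at 3 days was kept in 2 of 9 fits without 1 array, those without 3-day rat 1 or 10-day rat 2 (adjusted p up to 0.13 without 3-day rat 2). The call at 10 days was also kept in 2, those without 3-day rat 1 or 3-day rat 3 (adjusted p up to 0.169 without 10-day rat 1). Arsa, arylsulfatase A, differed by 0.18 and 0.21, and Ids, the iduronate sulfatase, by 0.16 and 0.01 at 3 and 10 days, and neither passed.

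All 4 lipid hydrolases lay above sham at 3 days, where 45% of all genes did. Asah1, acid ceramidase, which splits ceramide into sphingosine and a fatty acid, had signals of 7.54, 7.73 and 7.89 in sham, 8.37, 8.55 and 8.50 at 3 days and 8.52, 8.31 and 8.48 at 10 days. Every PPVL rat was above every sham rat, and the days lay on top of each other. Asah1 rose by 0.76 ± 0.099 at 3 days (1.69-fold, adjusted p = 0.00487) and by 0.72 ± 0.099 at 10 days (1.65-fold, adjusted p = 0.04). It was the single member called higher on both days, which share the sham rats. Its call at 3 days was kept in all 9 fits without 1 array, and the call at 10 days was kept in 3, those without a 3-day rat (adjusted p up to 0.143 without 10-day rat 1).

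Lipa, the acid lipase that frees cholesterol from lipoprotein esters, differed by 0.46 ± 0.131 at 3 days and 0.50 ± 0.131 at 10 days, without passing (adjusted p = 0.111 and 0.106). Without 3-day rat 1, whose signal of 8.62 was near the highest sham value of 8.57, Lipa passed on both days (adjusted p = 0.021 and 0.0452). The sphingomyelinase gene Smpd1 (0.19 and 0.00) and the palmitoyl thioesterase gene Ppt1 (0.17 and 0.06) did not pass on either day.

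Npc2, a soluble protein that hands cholesterol from the lysosome's interior to the membrane protein Npc1, rose by 0.64 ± 0.0968 at 3 days (adjusted p = 0.0103). Its signals were 8.89, 9.11 and 9.19 in sham, 9.77, 9.78 and 9.56 at 3 days and 9.56, 9.40 and 9.38 at 10 days. All PPVL rats were above all sham rats. The difference of 0.38 at 10 days did not pass (adjusted p = 0.0953). The call at 3 days was kept in all 9 fits without 1 array. The other genes grouped with Npc2 as proteases and activators did not pass. Tpp1, a tripeptidyl peptidase, differed by 0.33 at 3 days and 0.13 at 10 days, and passed at 3 days without 3-day rat 1 (adjusted p = 0.0272). Ctsa, the protective protein of Neu1 and Glb1, differed by 0.23 and 0.18, the progranulin gene Grn by 0.24 and 0.33, and Psap, the precursor of the saposins, by 0.12 and 0.12.

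None of the 6 membrane proteins and transporters passed with limma at 3 or 10 days. An unadjusted p under 0.05 was reached by 2 and 1 of them, beside 15.5% and 16.2% of all genes. Npc1, the membrane partner of Npc2, came nearest, with signals of 10.43, 10.45 and 10.49 in sham, 10.67, 10.93 and 10.73 at 3 days and 10.86, 10.70 and 10.72 at 10 days. All PPVL rats were above all sham rats. The differences of 0.32 ± 0.0804 and 0.30 ± 0.0804 had adjusted p = 0.0714 and 0.108. The differences of the main proteins of the lysosomal membrane were 0.12 and 0.06 for Lamp1 and 0.20 and 0.14 for Lamp2, and none passed. Scarb2, the receptor that carries glucocerebrosidase to lysosomes, differed by 0.04 and -0.15, Laptm5 by -0.09 and 0.00 and Mcoln1 by 0.05 and 0.10.

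**Figure D2:**
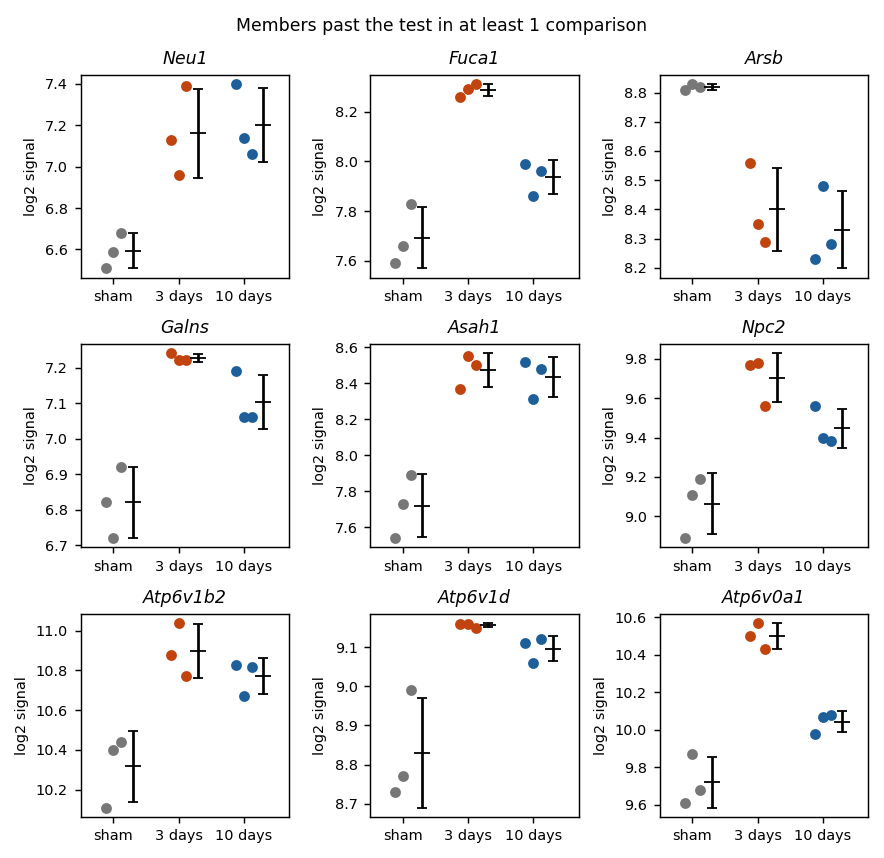
Log2 signal of the 9 members past the test in at least 1 comparison; points are single rats in the sham, 3-day and 10-day groups, and the black mark and bar beside each group are its mean ± SD (n = 3). Fuca1, Npc2 and Atp6v0a1 are highest at 3 days, Neu1 and Asah1 are as high at 10 days, and Arsb is lower on both days.

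**Figure D3:**
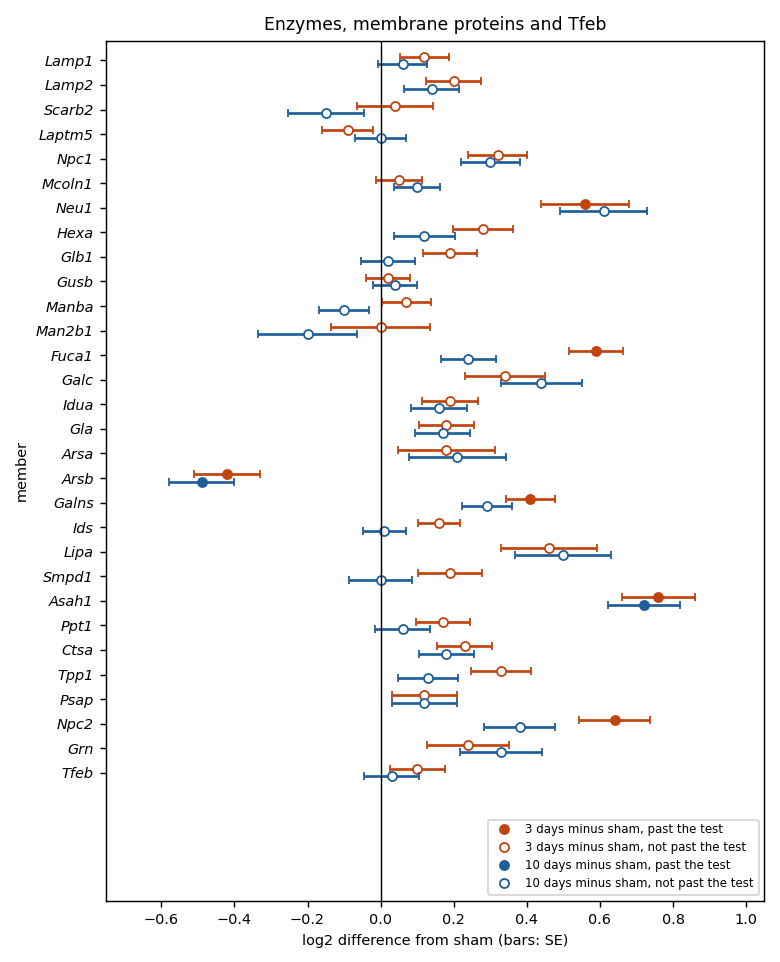
Log2 difference from sham (x axis, bars are SE, n = 3 per group) of the 30 members other than the Atp6v subunits, at 3 days (orange) and 10 days (blue); filled points passed the test. Most points lie to the right of 0, and Arsb is the only filled point to the left.

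The proton pump had 20 members on the array, of which 18 were tested. At 3 days 3 (16.7%) rose, beside 2.15% of all genes. Of the 18, 14 (77.8%) lay above sham at 3 days and 15 (83.3%) at 10 days, beside 45% and 49.8% of all genes. Atp6v0a1, the a1 form of the large V0 subunit, rose most of all members. Its signals were 9.61, 9.87 and 9.68 in sham, 10.50, 10.57 and 10.43 at 3 days and 9.98, 10.07 and 10.08 at 10 days. The 3 groups did not overlap, and the 10-day rats lay between the others. Atp6v0a1 rose by 0.78 ± 0.0776 at 3 days (1.72-fold, adjusted p = 0.00228), a call kept in all 9 fits without 1 array, and its difference of 0.33 at 10 days did not pass (adjusted p = 0.0824).

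None of the other V0 subunits passed on either day. Atp6v0b, a subunit of the proton-carrying ring, differed by 0.34 at 3 days and 0.16 at 10 days. The main ring subunit Atp6v0c (0.05 and -0.03), Atp6v0d1, which joins the ring to V1 (0.06 and 0.01), and Atp6v0e1 (0.06 and 0.07) had differences within 0.08 of 0 on both days. In Atp6v0e2 every 3-day rat was below every sham rat, with signals of 6.8, 6.70 and 6.74 against 6.90, 6.94 and 6.96. Its difference of -0.18 did not pass (adjusted p = 0.144). Atp6v0a4, a form known from kidney, had a mean signal of 4.5, near the filter for dim genes, and differed by -0.07 and 0.07. Tcirg1, which encodes the a3 form of the V0 subunit and lies outside the Atp6v symbols, had signals of 7.54, 7.97 and 7.88 in sham, 8.02, 8.18 and 8.02 at 3 days and 8.43, 8.04 and 8.04 at 10 days. Its PPVL rats were all above its sham rats, and its differences of 0.28 and 0.37 did not pass.

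In the V1 sector 2 of 11 tested subunits rose at 3 days, beside 2.15% of all genes. Atp6v1b2, the B2 form of the subunit that binds nucleotide together with Atp6v1a, had signals of 10.11, 10.40 and 10.44 in sham, 10.88, 11.04 and 10.77 at 3 days and 10.83, 10.67 and 10.82 at 10 days. All PPVL rats were above all sham rats. Atp6v1b2 rose by 0.58 ± 0.102 at 3 days (adjusted p = 0.019), which was lost without 3-day rat 2 (adjusted p = 0.0675), and its 0.46 at 10 days did not pass (adjusted p = 0.0705). Atp6v1d, a subunit of the central stalk, had signals of 8.73, 8.77 and 8.99 in sham, 9.16, 9.16 and 9.15 at 3 days and 9.11, 9.06 and 9.12 at 10 days. Atp6v1d rose by 0.33 ± 0.0737 (adjusted p = 0.0485) with no overlap with sham. The call was kept in only 1 of 9 fits, that without sham rat 3 (adjusted p up to 0.145 without sham rat 2).

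The remaining V1 subunits did not pass on either day. Those differing by at least 0.17 on both days were the catalytic subunit Atp6v1a (0.26 and 0.27), Atp6v1c1 (0.25 and 0.35) and Atp6v1h (0.19 and 0.28), which link V1 to V0 or regulate it, and Atp6v1e1 of the outer stalk (0.17 and 0.21). Atp6v1f (0.20 and 0.00) and Atp6v1g1 (0.27 and 0.11) differed mainly at 3 days. The tissue-restricted forms Atp6v1b1 (0.05 and 0.17), Atp6v1g2 (-0.13 and 0.11) and Atp6v1g3 (-0.09 and 0.01) had mean signals of 4.47, 5.12 and 5.14.

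**Figure D4:**
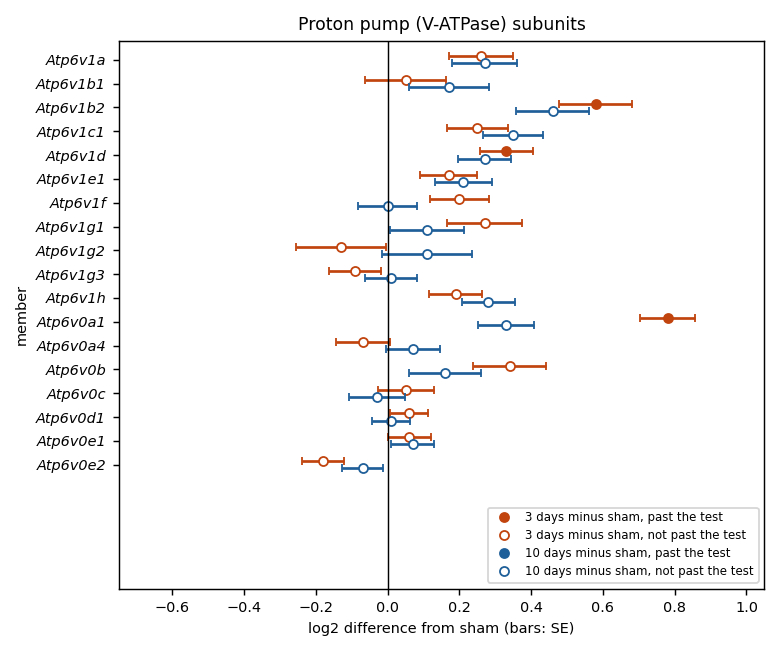
Log2 difference from sham (x axis, bars are SE, n = 3 per group) of the 18 tested Atp6v subunits at 3 days (orange) and 10 days (blue); filled points passed the test. Atp6v0a1, Atp6v1b2 and Atp6v1d are filled at 3 days, and no subunit is filled at 10 days.

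At 10 days after PPVL 1 member was higher than in sham, Asah1, and 1 was lower, Arsb. These are 2.08% of the 48 tested members in each direction, beside 0.492% of all genes called higher and 0.243% called lower. Of the 48, 39 (81.2%) lay above sham, where 49.8% of all genes did, and in 19 (39.6%) every 10-day rat was above every sham rat, beside 9.88% of all genes. In 2 members every 10-day rat was below every sham rat, beside 11.1%, and in either direction 21% of all genes had no overlap. The median difference was 0.13, and that of all genes was 0.00. None of the 18 tested proton pump subunits passed with limma at 10 days, where 7 had an unadjusted p under 0.05, beside 16.2% of all genes. After quantile normalization Atp6v1b2 passed at 10 days (0.48, adjusted p = 0.0484). Both comparisons with sham use the same 3 sham rats.

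Between the days no member passed with limma, in either direction; 0.0714% of all genes passed. At an unadjusted p under 0.05 there were 8 of the 48, all of them lower at 10 days, beside 11.3% of all genes in either direction. The differences of 10 days minus 3 days with the smallest p were those of Atp6v0a1, -0.45 ± 0.0776 (adjusted p = 0.126), and Fuca1, -0.35 ± 0.0744 (adjusted p = 0.18). In 9 members every 10-day rat was below every 3-day rat and in 4 members above, beside 7.74% and 6.90% of all genes. Of the 48, 18 (37.5%) lay higher at 10 days than at 3 days, where 51.8% of all genes did. The median difference was -0.05, and it was 0.00 after quantile normalization.

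The transcription factor gene Tfeb itself had signals of 7.17, 7.28 and 7.18 in sham, 7.25, 7.43 and 7.25 at 3 days and 7.26, 7.14 and 7.31 at 10 days. The groups overlapped, and the differences of 0.10 ± 0.0756 and 0.03 ± 0.0756 did not pass. Its relative Mitf rose at 3 days by 0.72 ± 0.0878 (1.64-fold, adjusted p = 0.00388), with signals of 8.55, 8.61 and 8.65 in sham, 9.25, 9.52 and 9.19 at 3 days and 8.99, 8.88 and 8.96 at 10 days. The 3 groups of Mitf did not overlap, and its 0.34 at 10 days did not pass (adjusted p = 0.104). The call at 3 days was kept in all 9 fits without 1 array. Tfec, another relative, differed by 0.42 and 0.27, and Tfe3 by 0.14 and 0.15, without passing. Mitf was the only 1 of 23 tested genes called in the list of this family with its mTORC1, Rag and Ragulator control. Of all genes, 2.15% were called higher at 3 days.

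Genes outside the set that act in the same pathway were taken from 6 lists, in which 106 genes were tested, 4 (3.77%) rose at 3 days and none fell, beside 2.15% and 0.714% of all genes. With 4 genes this share is near that of all genes. The small upward shift was not limited to the members. Of the 106 pathway genes, 77 (72.6%) lay above sham at 3 days, where 45% of all genes did. In 31 (29.2%) every 3-day rat was above every sham rat and in 3 below, beside 10.1% and 8.66% of all genes. Their median difference was 0.08, and it was 0.18 in the list of other lysosomal membrane proteins, channels and transporters. In the list for delivery of enzymes to the lysosome 2 of 19 rose: Vps29, a part of the retromer that returns sorting receptors, by 0.45 ± 0.0736 (adjusted p = 0.0136), lost without 3-day rat 2 (adjusted p = 0.0547), and Rab7b, a small GTPase of late endosomes, by 0.66 ± 0.136 (adjusted p = 0.0361), kept in 2 of 9 fits, those without sham rat 1 or 3 (up to 0.123 without 3-day rat 2). Cd63, a tetraspanin of lysosomal membranes, was the 1 of 19 other membrane proteins that rose, by 0.50 ± 0.0907 (adjusted p = 0.0198), a call lost without sham rat 1 or 2 or 3-day rat 1 or 2 (up to 0.0745).

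None of 10 other hydrolases and cofactors passed with limma at 3 days (4 at an unadjusted p under 0.05), none of 22 autophagy genes (1) and none of 13 accessory proton pump genes (2). Of all genes, 15.5% were under that unadjusted value at 3 days. The genes with the smallest p in these lists were Aga, which cleaves glycoasparagines (0.23), Atg10 (0.23) and Atp6ap2, an accessory subunit of the pump (0.29). At 10 days none of the 106 pathway genes passed with limma. At an unadjusted p under 0.05 there were 29, of which 20 were above sham, and 16.2% of all genes were under that value.

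Markers of cell types moved in the same comparisons, and in RNA of a whole isolate a change in the number of cells and a change of RNA per cell cannot be told apart. The labelled cell type was checked on 14 Kupffer cell and macrophage genes. Cd68 (11.17), Csf1r (10.25), Lyz2 (12.85) and Adgre1 (8.55) had mean signals above the median of 6.57 over all genes tested. The Kupffer cell genes Clec4f (5.03), Vsig4 (4.26), Cd5l (4.49), Cd163 (4.5) and Timd4 (4.40) lay near the filter for dim genes at 4.16. C1qa (6.14), C1qb (6.19), C1qc (6.21), Mrc1 (5.42) and Marco (5.27) were also below that median. The mean level of the 14 was 6.5 to 6.57 in sham, 6.76, 6.77 and 7.30 in 3-day rats 1 to 3 and 6.78 to 6.85 at 10 days. The high value at 3 days was that of 3-day rat 3 alone. Of the 14 genes 1, Lyz2, was called higher at 3 days. The 9 tested recruited monocyte genes had a mean level of 9.35 to 9.67 in sham, 10.15 to 10.26 at 3 days and 9.76 to 9.89 at 10 days. Of these, 5 were called higher at 3 days and 1 at 10 days, beside 2.15% and 0.492% of all genes.

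Lymphocyte genes were well above the filter in every rat. The mean level of 13 T cell genes was 9.47 to 9.66 in sham, 9.15 to 9.43 at 3 days and 9.10 to 9.27 at 10 days, with 0 and 1 called lower (limma; 9 and 12 at an unadjusted p under 0.05). That of 11 natural killer cell genes was 9.72 to 9.81, 9.25 to 9.80 and 9.26 to 9.39, with none called (2 and 8 unadjusted). That of 8 B cell genes was 8.01 to 8.03, 8.28 to 8.75 and 8.44 to 8.70, with 2 called higher at 3 days. That of 11 neutrophil genes was 6.81 to 7.96, 7.73 to 8.37 and 7.29 to 7.89, with 2 called higher at 3 days. That of 9 hepatocyte genes was 5.12 to 5.34, 5.22 to 5.66 and 5.39 to 5.48, with 1 called higher at 3 days, and that of 4 platelet genes was 6.32 to 6.69, 6.33 to 7.24 and 6.08 to 6.45, with none called (2 and 0 unadjusted). The 4 sinusoidal endothelial and 6 stellate cell genes tested stayed between 5.57 and 5.84 and between 4.93 and 5.11 in all rats, with none called. Beside these counts, 2.15% of all genes were called higher at 3 days, and 0.714% and 0.243% lower at 3 and 10 days. At an unadjusted p under 0.05 with limma there were 15.5% and 16.2% of all genes.

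Of the 13 T cell genes, 2 lay above sham at 3 days and 1, Cd4, at 10 days. Cd4 had mean signals of 11.03 in sham, 11.23 at 3 days and 11.25 at 10 days. With the mean level of the T and natural killer cell genes, Cd4 among them, as a covariate, no member passed at 3 or 10 days. Of all 14014 genes tested, 0 passed in that fit on either day. The median difference of the members was then 0.10 and 0.07, and the median SE over all genes was 0.162 at 3 days and 0.257 at 10 days in place of 0.0861. Atp6v0a1 differed by 0.73 ± 0.155 at 3 days in that fit (adjusted p = 0.268), Npc2 by 0.68 ± 0.193 (0.416), Asah1 by 0.64 ± 0.193 (0.459), Fuca1 by 0.53 ± 0.147 (0.414) and Neu1 by 0.27 ± 0.21 (0.866). With the hepatocyte genes as a covariate 5 members were called higher at 3 days, beside 196 (1.4%) of all genes. The part of monocytes, neutrophils, B cells and platelets in the members' differences was not tested.

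**Figure D5:**
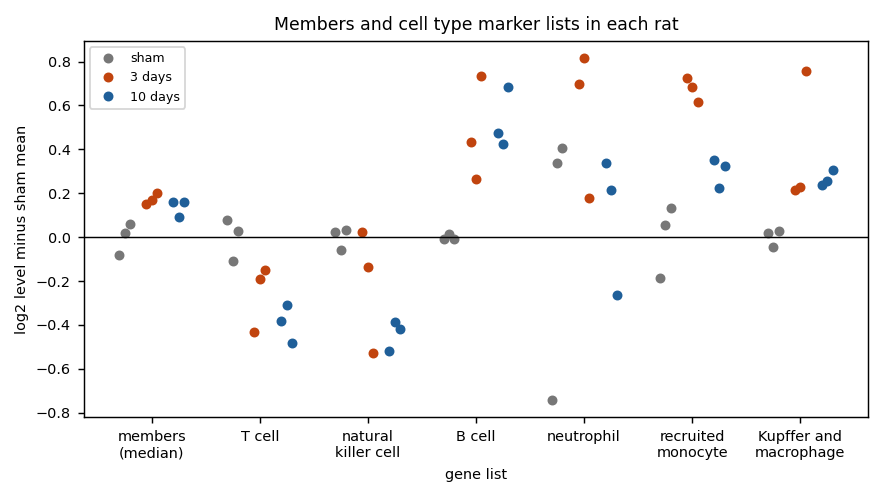
Level in each rat minus the sham mean (y axis, log2) for the median of the 48 members and for the mean of 6 cell type marker lists (x axis); each point is 1 rat of the sham, 3-day or 10-day group. The member medians span -0.08 to 0.20, a smaller range than that of any of the 6 marker lists shown.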

How the data were processed

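RNA of 9 rats was measured on 1-colour Affymetrix arrays with biotin label. The deposited values are log2 signals made by the authors with RMA in Transcriptome Analysis Console, per the submitters' processing notes; versions and genome build are not given in the sources used here. RMA sets the probe signals of the arrays to a common distribution, so a shift of all genes together cannot be seen. The deposited values were still not exactly alike in distribution. A further quantile normalization changed the genes called higher at 10 days from 69 to 125. Array medians were 5.21 to 5.26, and correlations between arrays 0.987 to 0.993. For arrays the number of rats limits the precision.

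Of 36685 probesets, 18511 carried 1 gene symbol, 575 several and 17599 none in the platform annotation. The probeset with the highest mean stood for a gene. Genes were kept where the mean reached the 30th percentile over probesets (4.16), which left 14014. The fit used limma 3.58.1 (R 4.3.3), with 6 residual and 3.59 prior degrees of freedom. With 3 rats against 3 an exact permutation test cannot go below p = 0.1. Data of the comparison at 3 days were simulated with 14014 genes, 200 of them changed, and normal values drawn independently for each gene. The test found 66.2% of log2 changes of size 0.5 and 95.2% of those of size 1, and 4.35% of calls were false. Such data hold no shift shared by many genes, so these shares need not hold for the arrays.

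Each array is a rat of its own in the labels. The members and lists were chosen with earlier results of these data known, so no list was tested as a set. Values in every rat are given for members called in any comparison and for those with the smallest p of their role group at 3 or 10 days. Pathway genes are named where called, or for the smallest p of a list without a call, besides Tcirg1; Atp6v0e2 was singled out after its values were seen, and Tfec and Tfe3 were added as relatives of Mitf. The settings of the closing section are other filters, normalization, moderation and covariates, a replicate block, fits of 2 groups and leaving out each array.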

Additional observations from a re-analysis of the deposited data

How the results depend on the processing

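No member called in a comparison turned direction under any of the 19 alternatives. The count of members higher at 3 days, 8, was 4 with only the 2 groups compared, 0 with the T and NK cell level (the lymphocyte score) and 5 with the hepatocyte score as a covariate, and 5 to 8 without 1 array (5 without sham rat 2 and without 3-day rat 2). The 1 member lower at 3 days was 0 with no filter, a replicate block, only the 2 groups or either covariate, and 0 to 1 without 1 array. The 1 member higher at 10 days was 0 with no filter, a replicate block or either covariate, 2 with a filter at the 50th percentile, an intensity trend or array weights, 3 with quantile normalization, and 0 to 2 without 1 array; the added members were Neu1, with quantile normalization also Atp6v1b2, and without 3-day rat 1 Lipa in place of Neu1. The 1 member lower at 10 days was 0 with no filter, a replicate block, only the 2 groups or either covariate, and 0 to 1 without 1 array. The median difference of 0.19 at 3 days was 0.10 with the lymphocyte score and 0.14 to 0.23 without 1 array. That of 0.13 at 10 days was 0.07 with this score, and that of -0.05 between the days was 0.00 after quantile normalization. Of all genes, 301 were higher at 3 days, 99 with only the 2 groups, 195 with a replicate block, 196 with the hepatocyte score and 0 with the lymphocyte score. At 10 days 69 were higher, and 0 with no filter, a replicate block or the lymphocyte score, 4 with the hepatocyte score, 43 with only the 2 groups, 108 at the 50th percentile, 109 with a trend, 112 with array weights and 125 with quantile normalization. Without 1 array these counts were 161 to 249 and 0 to 89. Covariates, the replicate block and 2-group fits leave fewer degrees of freedom. The median SE over all genes at 3 days was 0.162 with the lymphocyte score and 0.109 with the hepatocyte score, in place of 0.0861. What moved the counts was not tested. Arrays share only a number in the labels: with the replicate block 6 members were higher at 3 days, and deviations of same-numbered arrays correlated at -0.1 to 0.08 over 9 pairs, with 1 of 9 arrays nearest to its own number.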

Other observations

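Autophagy genes, which deliver the cell's own material to lysosomes, lay lower at 10 days than at 3 days in part of their list, although none of the 22 tested passed with limma (5 had an unadjusted p under 0.05, beside 11.3% of all genes). In 7 of the 22 every 10-day rat was below every 3-day rat, and 7.74% of all genes tested had that arrangement. The differences of 10 days minus 3 days were -0.45 ± 0.111 for Map1lc3a, which encodes a protein of the autophagosome membrane, -0.20 ± 0.0527 for Wipi2 and -0.19 ± 0.0597 for the autophagy receptor gene Optn. These genes were chosen after their values were seen.

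Some deposited signals were exactly equal on several arrays. This held for 10 of the 48 members (20.8%) and for 51.2% of all genes tested. Gusb and Atp6v0e1 each had the same value on 5 of 9 arrays, and their small spread within groups includes these equal values. The 9 members called in a comparison each had 9 different values.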
